A study of Mus musculus with 3 samples.

Results

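The 10 genes described here encode secreted ligands of the bone morphogenetic protein (BMP) and growth differentiation factor (GDF) family (Bmp2, Bmp4, Bmp5, Bmp7, Gdf5 and Gdf6), their type I receptors (Bmpr1a and Bmpr1b) and antagonists of BMP ligands (Nog and Chrd). Intervals precipitated with an LMX1B antibody were counted for a gene when their midpoint lay within 300 kb of its RefSeq gene body, whichever genes lay between. This gave 31 of the 4501 intervals of the validation ChIP and 15 of the 1287 intervals of the first ChIP. The 10 genes stand among 21757 protein-coding genes of the annotation, and no interval was counted for more than 1 of them.

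Both lists come from ChIP-seq, the sequencing of chromatin fragments precipitated with an antibody, here the polyclonal LMX1B antibody BMO8. The tissue was whole e12.5 (embryonic day 12.5) limb buds from C57BL/6 mice. The validation ChIP, so called because its title describes a validation of the antibody, carries no genotype in its track name, and the first ChIP is marked as wild-type. An input DNA sample was described as pooled from wild-type and mutant chromatin, had no interval list and was not used. The description of each sample gives 2 runs of 48 buds, with fore- and hindlimbs mixed. Since whole buds were used, the chromatin also came from cells that do not make LMX1B, such as ventral mesenchyme. Each ChIP is 1 sample, so no spread between replicates exists and no test was made. Sequencing depth is unknown, and interval lists do not measure expression, so the tissue label was not checked against marker genes.

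BMPs and GDFs bind pairs of type I and type II receptors, which phosphorylate SMAD proteins that then regulate genes in the nucleus, while noggin and chordin bind ligands outside the cell and keep them from receptors. In the limb bud this signalling takes part in dorsoventral and anteroposterior patterning, in the condensation of cartilage, in death of cells between the digits and in joint formation. LMX1B, a transcription factor with LIM domains and a homeodomain, is made in dorsal limb mesenchyme and is required for dorsal fate.

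Of the 10 genes, 6 (Bmp2, Bmp4, Bmp7, Gdf5, Gdf6 and Bmpr1b) had a shared interval in the window, that is, a first-ChIP interval that overlapped a validation interval by at least 1 bp. Among all protein-coding genes the percentage was 12.1%. Genes and settings were chosen with earlier results of these data known, so this and the following comparisons are description only. A validation interval of any kind lay near 8 of the 10 genes, where 51.9% of protein-coding genes had one, and a first-ChIP interval near 7, where 27.3% had one. The median count per gene was 3 validation intervals, 1 first-ChIP interval and 1 shared interval for the 10 genes, against 1, 0 and 0 for the other protein-coding genes. The median distance to the nearest shared interval was 160 kb for the 10 genes and 1905 kb for the others. The median gene body was 14.5 kb and 17.2 kb long, in the same order. The sets differed in their surroundings, with a median of 5.5 other coding genes in the window for the 10 genes and 10 for the others. Whether this difference bears on the interval counts was not tested. The windows of the 10 genes, which add up to 6.68 Mb, held 4.64 validation intervals and 2.25 first-ChIP intervals per Mb, against 1.71 and 0.561 per Mb in the windows of the other genes, where an interval in overlapping windows was counted for each gene.

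**Figure D1:**
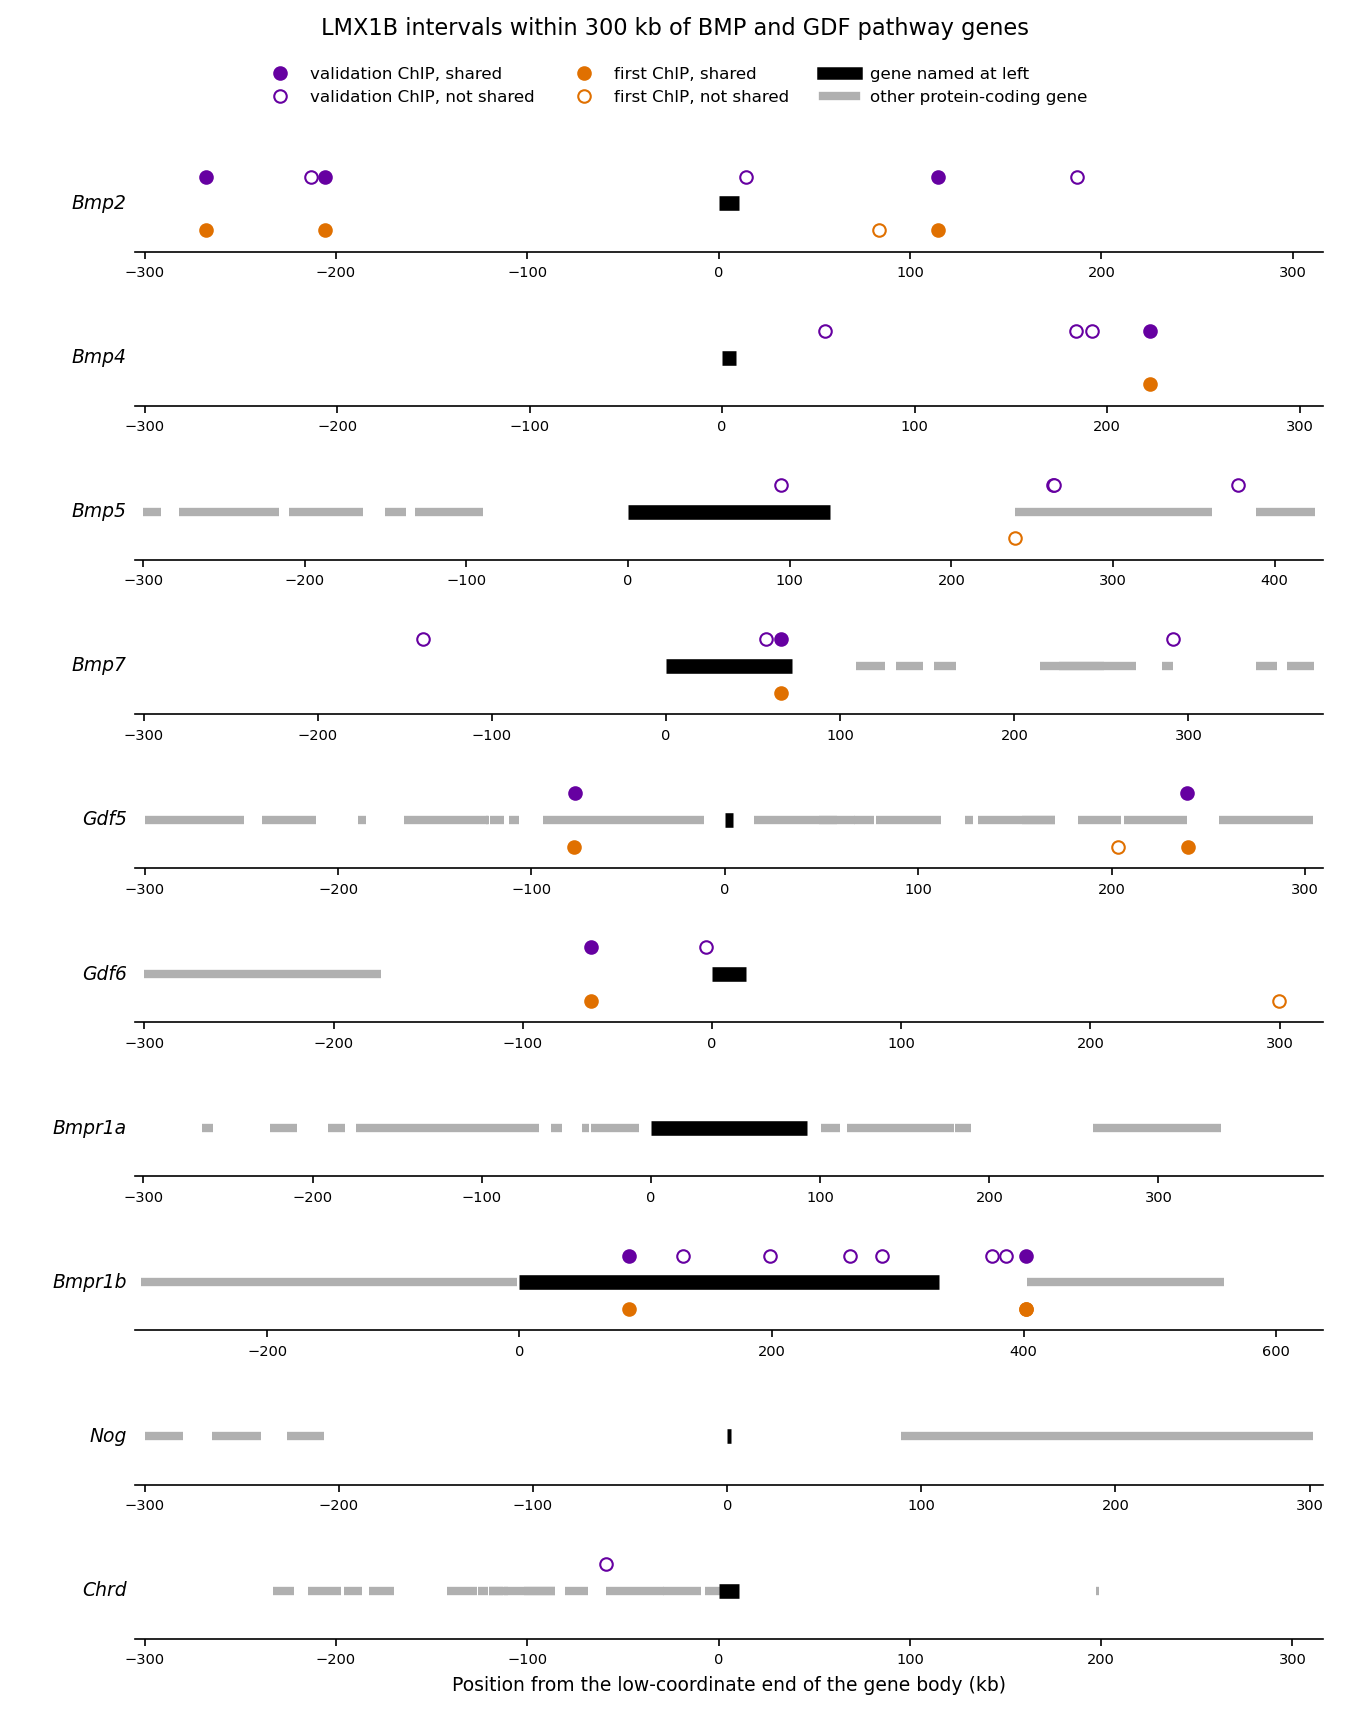
Each row shows the window of 1 gene, with position in kb from the low-coordinate end of its gene body. Points above the line are midpoints of validation intervals and points below it midpoints of first-ChIP intervals, filled where shared. Bmp2 and Bmpr1b have 3 shared first-ChIP intervals each, those of Bmpr1b including a pair that cannot be separated at this scale, and the windows of Bmpr1a and Nog are empty.

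**Figure D2:**
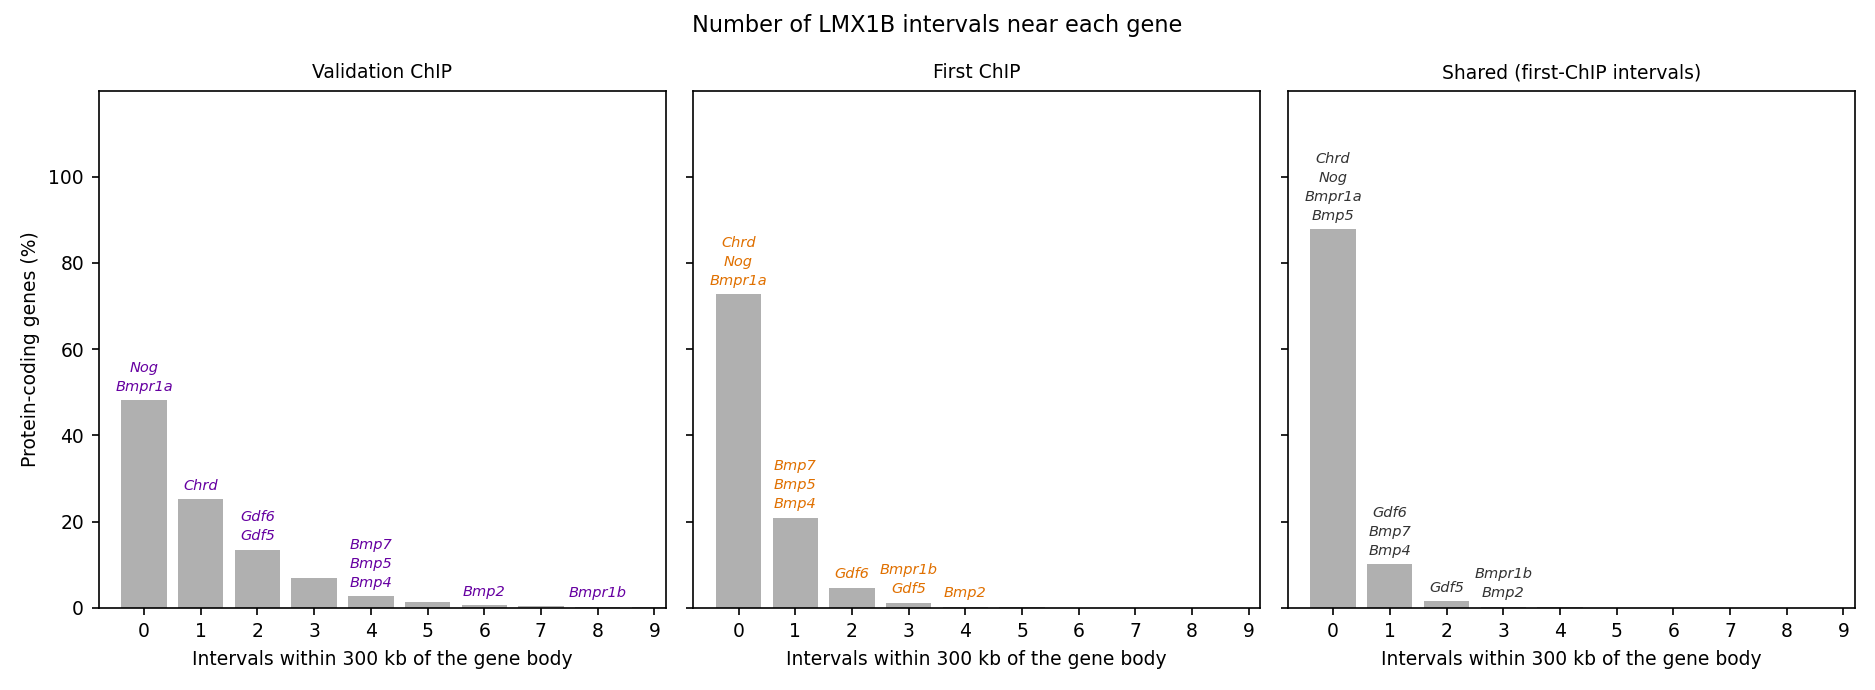
Bars give the percentage of the 21757 protein-coding genes (vertical axis) with a given number of intervals within 300 kb (horizontal axis, drawn up to 9), for the validation ChIP, the first ChIP and shared intervals. The names stand above the bar of their own count, from 0 validation intervals for Bmpr1a and Nog to 8 for Bmpr1b.

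No genome sequence was used here, so most intervals cannot be shown as sequence. Promoter windows of RefSeq on GRCm38.p6, from 250 bases before to 50 bases after a gene start, overlapped 3 of the 31 validation and 4 of the 15 first-ChIP intervals. The share of the whole lists on promoter windows is not given here, so these counts are no result about the 10 genes. None of these promoters belonged to one of the 10 genes, of which 5 (Bmp4, Bmp5, Bmpr1a, Bmpr1b and Chrd) have a window in the promoter table. A first-ChIP interval reaches into each of the following 4. The same interval as at Romo1 also covers the opposite Nfs1 window, which is not printed and is described under Other observations. The printed windows are the start of a long noncoding RNA inside Bmp7, and starts of neighbouring coding genes in the windows of Gdf5 and Bmp5. They are shown because only promoter sequence was held, and they do not stand for the intervals in general. Of these, 16 of the 31 validation and 8 of the 15 first-ChIP intervals lay outside coding genes and more than 1 kb from their ends. Sequences run 5′ to 3′ on the strand of the named gene, and capitals mark the bases inside the first-ChIP interval.
Gm40010, in the Bmp7 window (chr2:172934097-172934396, minus strand, shared interval): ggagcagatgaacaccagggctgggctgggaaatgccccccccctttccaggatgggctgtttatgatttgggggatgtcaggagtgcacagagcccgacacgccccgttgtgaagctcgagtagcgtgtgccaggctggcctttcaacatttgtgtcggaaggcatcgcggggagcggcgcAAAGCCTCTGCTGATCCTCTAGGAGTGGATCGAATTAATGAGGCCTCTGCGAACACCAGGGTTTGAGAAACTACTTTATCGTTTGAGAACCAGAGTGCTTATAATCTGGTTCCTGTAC
Rbm39, in the Gdf5 window (chr2:156180189-156180488, minus strand, shared interval): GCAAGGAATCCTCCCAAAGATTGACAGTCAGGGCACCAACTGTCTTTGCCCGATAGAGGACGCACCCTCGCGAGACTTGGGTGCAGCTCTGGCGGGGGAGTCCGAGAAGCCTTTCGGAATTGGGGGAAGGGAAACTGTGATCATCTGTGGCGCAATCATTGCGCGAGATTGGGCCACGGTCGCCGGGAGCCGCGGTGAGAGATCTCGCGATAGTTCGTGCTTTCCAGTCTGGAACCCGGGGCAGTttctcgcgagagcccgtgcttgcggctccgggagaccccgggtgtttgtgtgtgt
Romo1, in the Gdf5 window (chr2:156143983-156144282, plus strand, first ChIP only): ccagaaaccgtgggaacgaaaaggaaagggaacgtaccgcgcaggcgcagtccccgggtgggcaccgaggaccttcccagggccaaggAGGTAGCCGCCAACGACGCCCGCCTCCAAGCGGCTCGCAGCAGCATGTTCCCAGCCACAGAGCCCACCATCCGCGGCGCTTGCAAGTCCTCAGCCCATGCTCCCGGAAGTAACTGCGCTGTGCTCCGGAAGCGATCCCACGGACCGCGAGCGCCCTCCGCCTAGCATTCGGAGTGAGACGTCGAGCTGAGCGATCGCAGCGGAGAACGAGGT
Hmgcll1, in the Bmp5 window (chr9:76014727-76015026, plus strand, first ChIP only): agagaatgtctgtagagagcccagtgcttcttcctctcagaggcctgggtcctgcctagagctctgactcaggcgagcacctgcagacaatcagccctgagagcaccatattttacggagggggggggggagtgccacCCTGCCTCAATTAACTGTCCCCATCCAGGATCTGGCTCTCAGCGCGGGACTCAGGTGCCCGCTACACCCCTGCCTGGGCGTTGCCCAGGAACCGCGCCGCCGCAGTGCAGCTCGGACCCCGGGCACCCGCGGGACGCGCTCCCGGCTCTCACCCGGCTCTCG

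Motifs were searched on both strands of these windows. The homeodomain core TAATTA, which is its own reverse complement, was in none of the 4 and is in 5.29% of all 32851 promoter windows. The shorter core TAAT, which it contains, was found in the Gm40010 window at bases 216, 218 and 284, counted from the 5′ end, the first pair overlapping each other, and in the Hmgcll1 window at base 148. All 4 matches fell inside the capitals, and 58.0% of all windows hold that core. The sequence GTCTG, a core bound by SMAD proteins, was in the Rbm39 window (base 227, inside the capitals) and the Hmgcll1 window (bases 8 and 84, outside them). It is in 49.6% of all windows. The E-box CAGATG was in the Gm40010 window (base 5, outside the capitals) and the Rbm39 window (base 142, inside them) and is in 17.2% of all windows. The GC-rich SMAD site GGCGCC was in none of the 4 and is in 11.9% of all windows. The GC content was 55.0% for Gm40010, 60.7% for Rbm39, 66.3% for Romo1 and 65.7% for Hmgcll1, beside a median of 52.7% over all windows. A match or its absence describes these letters only.

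Among the ligands, Bmp2, which encodes a ligand of cartilage and bone formation that is also expressed between the digits, had the most, with 6 validation and 4 first-ChIP intervals. At least as many validation intervals were found near 2.19% of protein-coding genes, and at least as many first-ChIP intervals near 0.510%. The same shares were 6.23% and 27.3% for Bmp4, Bmp5 and Bmp7, 26.7% and 1.74% for Gdf5, and 26.7% and 6.41% for Gdf6. No other protein-coding gene had its midpoint within 300 kb of Bmp2 (chromosome 2, 133552159 to 133562896), and Bmp2 was the nearest coding gene of all 10 intervals. The 3 shared sites lay on both sides of the gene.

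The Bmp2 site with the highest validation score was a shared one on the high-coordinate side, at 133666340 to 133667120 in the validation ChIP (score 28, 98.0% of that list lower) and at 133666704 to 133667111 in the first ChIP (score 20, 44.7% lower). It lay 104 kb from the gene, and the summits were 48 bp apart. In humans, duplications of a limb regulatory element downstream of BMP2 cause brachydactyly, a shortening of digits. Whether the mouse counterpart of that element lies at this site was not examined.

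On the low-coordinate side of Bmp2, the validation ChIP had shared intervals at 133283733 to 133284473 (score 10, 24.0% of the list lower) and 133346092 to 133346741 (score 13, 65.7% lower). Their first-ChIP partners, at 133284283 to 133284709 and 133346279 to 133346598, had scores of 21 (54.7% lower) and 17 (13.6% lower). These sites were 268 kb and 206 kb from Bmp2. Validation intervals that were not shared lay 3.57 kb (score 16), 176 kb (score 22) and 213 kb (score 8) away, and the unshared first-ChIP interval lay 72.8 kb away (score 17). The interval closest to Bmp2 was listed in the validation ChIP only.

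Bmp4, which encodes a ligand of the apical ectodermal ridge and the mesenchyme, had 4 validation intervals and 1 first-ChIP interval, all on the high-coordinate side of the gene (chromosome 14, 46383525 to 46390669). Since the gene runs on the minus strand, this side is upstream of its start. The shared site, at 46605161 to 46606643 in the validation ChIP (score 13) and 46605411 to 46606047 in the first ChIP (score 20), lay 215 kb away inside the long noncoding RNA gene 4933425B07Rik. It was nearer to Cdkn3, a cell cycle phosphatase gene, at 155 kb. The validation interval was 1483 bp wide, the widest of the 31, and the summits were 416 bp apart. Unshared validation intervals lay 46.2 kb (score 11), 176 kb (score 15) and 185 kb (score 11) from Bmp4, the last of them inside the long noncoding RNA gene Rubie.

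Bmp5, a ligand gene of cartilage condensations whose loss gives mice short ears, was the ligand without a shared interval. While 87.9% of protein-coding genes also had no shared interval within 300 kb, the nearest one to Bmp5 was 3135 kb away. Of its 4 validation intervals, 1 lay in the gene body (75869978 to 75870579 on chromosome 9, score 13, 65.7% of the list lower) and 94.7 kb downstream of the start site. The other 3 had scores of 8, 9 and 9, between 1.22% and 7.82% of the list being lower. A pair of these lay inside the neighbouring gene Hmgcll1, 138 kb and 139 kb from Bmp5, and the third 11.4 kb from Gfral. The first-ChIP interval (76014865 to 76015219, score 18) was 0.344 kb inside an end of Hmgcll1, at the promoter printed above, and 115 kb from Bmp5.

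Bmp7, which encodes a ligand of ridge and interdigital tissue, had a shared interval inside its gene body (chromosome 2, 172868012 to 172940321). It was listed at 172933666 to 172934455 in the validation ChIP, with a score of 21 (93.6% of the list lower), and at 172933784 to 172934214 in the first ChIP, with a score of 28 (86.9% lower). The score of 28 was the highest of the 15 first-ChIP intervals near the 10 genes, and the summits stood at the same base. The midpoint of the first-ChIP interval was 6.32 kb from the high-coordinate gene end. The site also lay in Gm40010, a long noncoding RNA gene that overlaps Bmp7, with the summit 130 bp from its start. A further validation interval in the Bmp7 body (172924807 to 172925582, score 19, 90.8% lower) was not shared. Validation intervals with a score of 10 lay 140 kb away on the low side and 219 kb away on the high side. Between the last and Bmp7 were 6 coding genes, and it was 0.164 kb from the high-coordinate end of Pck1, a gene of gluconeogenesis.

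Gdf5, which encodes a ligand that marks and forms joints, had 2 validation intervals, both shared, and 3 first-ChIP intervals, 2 of them shared. The gene is 4.35 kb long (chromosome 2, 155941023 to 155945367), and 18 other coding genes had their midpoint within 300 kb, the most for any of the 10. None of its 5 intervals had Gdf5 as the nearest coding gene. The region from Gdf5 to the next coding genes, Uqcc1 and Cep250, is 26.0 kb long and held no interval.

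The Gdf5 site with no coding gene between lay inside Uqcc1, 77.7 kb away. Regulatory sequences of mouse Gdf5 are known to extend on that side into Uqcc1, and whether this site is one of them was not tested. It was listed at 155862714 to 155863926 with a score of 24 in the validation ChIP (96.2% of the list lower) and at 155862829 to 155863721 with a score of 20 in the first ChIP (44.7% lower). Its first-ChIP interval was 893 bp wide, the widest of the 15. On the other side, a shared site at the start of Rbm39, a splicing factor gene, lay 235 kb away with a validation score of 12 and a first-ChIP score of 21. A first-ChIP interval at the start of Romo1 and Nfs1 (score 22) lay 199 kb away and was not shared. Between Gdf5 and these 2 sites lay 10 and 8 coding genes.

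Gdf6, whose product acts in joints, had 2 validation and 2 first-ChIP intervals, and Gdf6 was the nearest coding gene of all 4. The shared site lay 63.7 kb (validation ChIP) and 63.8 kb (first ChIP) away on the low-coordinate side of the gene (chromosome 4, 9844372 to 9862345), inside the long noncoding RNA gene 4930412C18Rik. It was listed at 9780381 to 9780926 in the validation ChIP (score 16, 83.3% of the list lower) and at 9780407 to 9780771 in the first ChIP (score 19, 35.4% lower), with summits 16 bp apart. An unshared validation interval lay 3.12 kb from the gene (9841002 to 9841496, score 10), and an unshared first-ChIP interval lay 282 kb away on the other side (10144209 to 10144481, score 17).

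The 2 receptor genes differed in what was listed near them. Bmpr1b, which encodes the receptor through which GDF5 acts in digit cartilage, had 8 validation and 3 first-ChIP intervals, and all 3 first-ChIP intervals were shared. At least as many validation intervals were found near 1.08% of protein-coding genes, and at least as many first-ChIP intervals near 1.74%. It is also the longest of the 10 genes (332 kb, chromosome 3, 141837135 to 142169585), and its window was 0.932 Mb long. Bmpr1a, which encodes the receptor that is used broadly in limb mesenchyme, had no interval of either list in a window of 0.692 Mb. Among all protein-coding genes, 48.1% had no validation interval in the window and 72.7% no first-ChIP interval. The nearest validation interval to Bmpr1a was 1696 kb away and the nearest first-ChIP interval 5060 kb away.

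Inside the Bmpr1b body lay 5 of its validation intervals. One of them was shared, at 141923531 to 141924176 with a score of 14 (73.8% of the list lower), beside 141923681 to 141924034 with a score of 20 (44.7% lower) in the first ChIP. It was 7.55 to 58.4 kb downstream of the 3 start sites in the promoter table, measured from the first-ChIP summit. The other 4 had scores of 9 to 12. Beyond the high-coordinate end, unshared validation intervals lay 42.7 kb and 53.5 kb away (score 11 each). The highest validation score near any of the 10 genes, 33 (99.0% of the list lower), belonged to the interval at 142238130 to 142239278. It overlapped 2 first-ChIP intervals, at 142238368 to 142238791 (score 23) and 142238855 to 142239127 (score 17). This site was 69.1 kb from Bmpr1b but 0.881 kb from Pdlim5, which encodes a PDZ and LIM domain protein of the cytoskeleton.

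The antagonist genes had no shared interval. Of all protein-coding genes, 87.9% had no shared interval within 300 kb, 48.1% no validation interval and 72.7% no first-ChIP interval. Nog, which encodes noggin, had an empty window in both lists. The nearest validation interval was 606 kb and the nearest first-ChIP interval 1253 kb from the gene (chromosome 11, 89300638 to 89302559). Chrd, which encodes chordin, had 1 validation interval 58.8 kb from the gene (chromosome 16, 20672370 to 20672966, score 11, 42.4% of the list lower). It lay 0.052 kb from the low-coordinate end of the Eif4g1 gene, which encodes a translation initiation factor and starts at that end. Between the interval midpoint and Chrd lay 4 coding genes. The nearest first-ChIP interval to Chrd was 2366 kb away. Nog had 4 other coding genes with their midpoint in the window and Chrd 17. The genes with a shared interval had 0 (Bmp2 and Bmp4), 1 (Gdf6), 2 (Bmpr1b), 7 (Bmp7) and 18 (Gdf5).

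**Figure D3:**
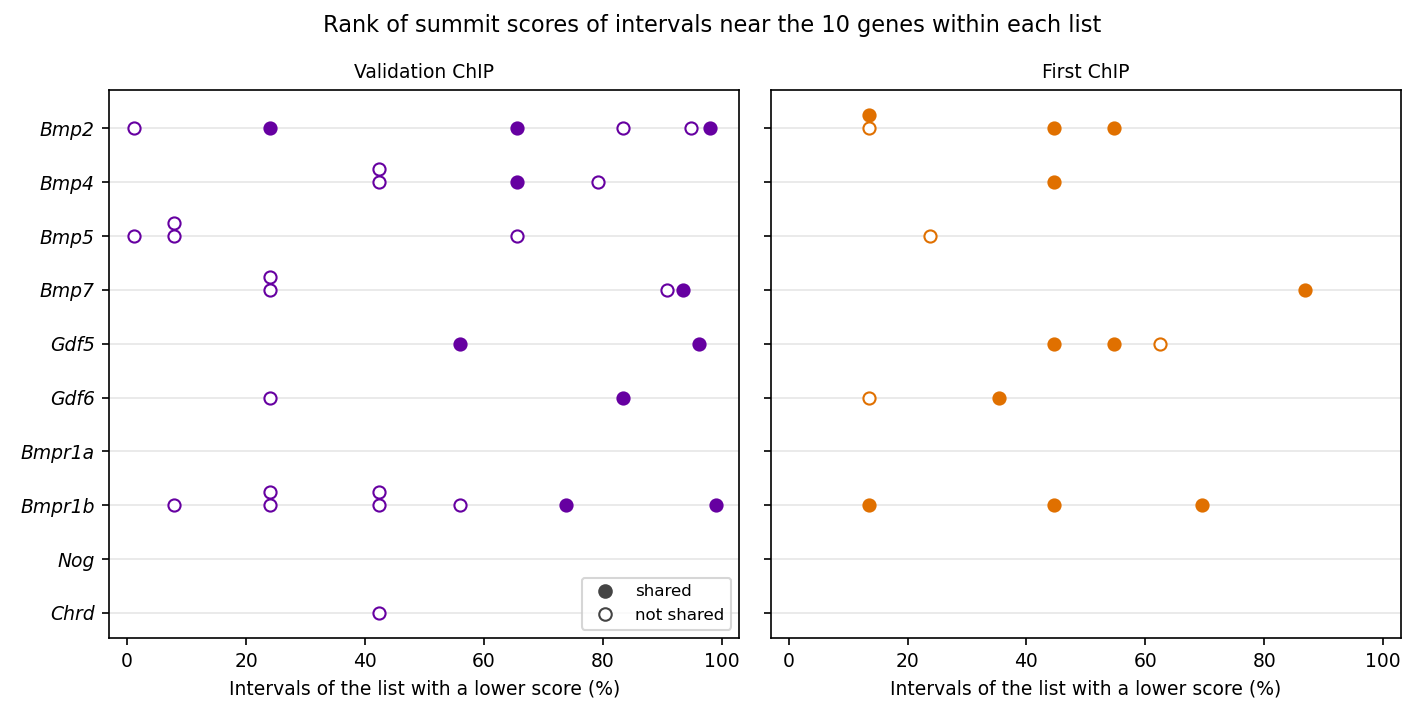
For each gene (vertical axis), points give the percentage of intervals of the same list that had a lower summit score (horizontal axis), with the validation ChIP on the left and the first ChIP on the right. Filled points are shared intervals. The highest points are 99.0% for Bmpr1b in the validation ChIP and 86.9% for Bmp7 in the first ChIP.

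Within each list, the intervals near the 10 genes had middling scores. The deposited score has no stated unit and was ranked within its own list only. In the validation ChIP the 31 intervals had scores of 8 to 33 with a median of 11, and the other 4470 had scores of 6 to 55 with a median of 11. In the first ChIP the 15 intervals had scores of 17 to 28 with a median of 20, and the other 1272 had scores of 12 to 86 with a median of 20. Shared intervals near the 10 genes had a median of 15 in the validation ChIP, beside 16 for other shared ones, and of 20 in the first ChIP, beside 22. Median widths were 625 bp near the genes and 570 bp elsewhere in the validation ChIP, and 365 bp and 389.5 bp in the first ChIP.

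Of the validation intervals near the 10 genes, 10 (32.3%, 95% Wilson interval 18.6 to 49.9) overlapped a first-ChIP interval, against 691 (15.5%, 14.4 to 16.5) of the rest. Of the first-ChIP intervals near them, 11 (73.3%, 48.0 to 89.1) overlapped a validation interval, against 696 (54.7%, 52.0 to 57.4) of the rest. The Wilson intervals cover counting error only and treat intervals as independent. Bmp2 and Bmpr1b gave 3 shared first-ChIP intervals each, and a pair of those near Bmpr1b overlapped the same validation interval. A track named Active Regions was deposited together with both lists. It held the same 11 first-ChIP intervals (73.3%) and none of the other 4, and held 56.9% of the rest of that list. In the validation ChIP it overlapped 10 intervals near the genes and 691 of the rest, the same numbers as were shared. Since it repeats intervals of these lists, it is no independent support.

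The intervals at gene ends lay at ends of neighbouring genes, and none at an end of one of the 10 genes. Midpoints within 1 kb of either end of a coding gene made up 4 of 31 in the validation ChIP (12.9%, 95% Wilson interval 5.13 to 28.9), against 11.3% of the rest of that list. In the first ChIP they made up 4 of 15 (26.7%, 10.9 to 52.0), against 21.6% of the rest. The genes at whose ends they lay were Pck1, Rbm39, Pdlim5, Eif4g1, Hmgcll1 and Romo1. One of the 10 genes was the nearest coding gene for 20 of the 31 validation and 8 of the 15 first-ChIP intervals. No complete coding gene lay between interval and gene for 27 and 13 of them, and 19 and 13 lay more than 50 kb from the gene. By nearest coding gene, 4 of the 10 (Bmp2, Bmp7, Gdf6 and Bmpr1b) had a shared interval, where 2.28% of protein-coding genes had one. In a domain that stops at the next coding gene, 5 did, those 4 and Bmp4, where 2.91% had one.

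**Figure D4:**
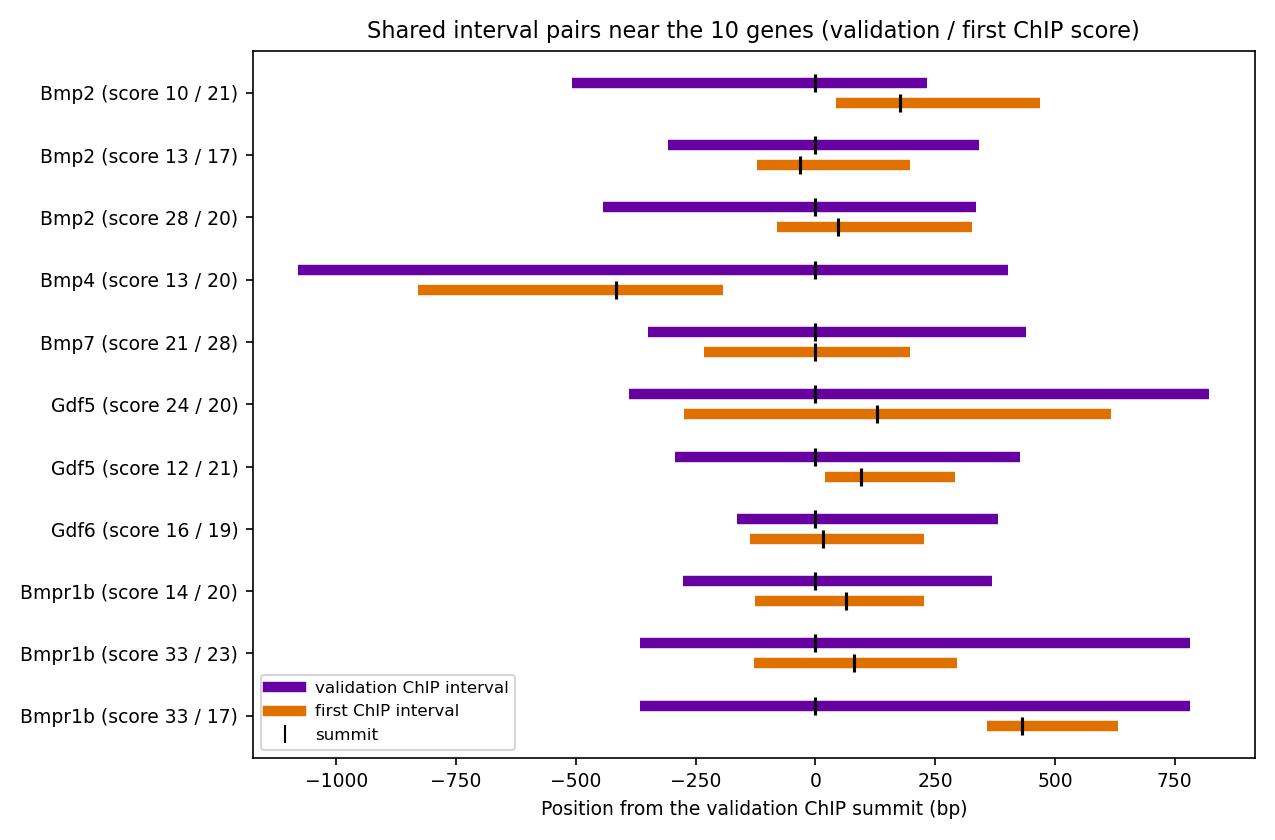
Each row is a pair of overlapping intervals, with position in bp from the validation ChIP summit on the horizontal axis. Bars are the intervals of the validation ChIP (above) and the first ChIP (below), ticks are summits, and the scores of the validation and first ChIP stand beside the gene. In 10 of the 11 pairs the first-ChIP interval lies wholly inside the validation interval, the exception being the first Bmp2 pair.

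The shared sites near the 10 genes formed 11 pairs, since 1 validation interval near Bmpr1b overlapped a pair of first-ChIP intervals. Summits of the pairs were a median of 80 bp apart (0 to 432 bp), and 64 bp in the other 698 pairs. They were within 100 bp in 7 of 11 pairs (63.6%), against 73.9% of the rest. The first-ChIP interval lay wholly inside the validation interval in 10 of the 11 pairs (90.9%), against 68.5% of the rest. Most summits lie on multiples of 16 bp (94.4% of validation and 96.3% of first-ChIP summits), so smaller distances mean little. The pairs farther than 100 bp apart were the Bmp4 pair (416 bp), the farthest Bmp2 pair (176 bp), the Uqcc1 pair near Gdf5 (128 bp) and 1 of the Pdlim5 pairs near Bmpr1b (432 bp). Overlap of at least 50% of both intervals held for 5 pairs (45.5%), against 65.3% of the rest: the 104 kb site of Bmp2, the Bmp7 site, the Uqcc1 site, the Gdf6 site and the site inside Bmpr1b.

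The border of 300 kb is a choice, and intervals lay just outside it. The farthest interval inside it was that of Gdf6 at 282 kb in the first ChIP (score 17). The nearest outside were a validation interval 306 kb from Bmp4 (score 9), one 306 kb from Bmpr1b (score 8), and first-ChIP intervals 308 kb from Bmpr1b (score 19) and 328 kb from Bmp4 (score 24).

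Other genes of the pathway were listed by role for comparison. Of 61 genes, 11 (18.0%) had a shared interval within 300 kb, where 12.1% of protein-coding genes did, 45 had a validation interval, where 51.9% of protein-coding genes did, and 23 a first-ChIP interval, where 27.3% did. The median distance to the nearest shared interval was 1425 kb. Among 11 other ligands these were Bmp3 (282 kb), Bmp10 (209 kb) and Mstn (134 kb), and among 9 receptors and co-receptors the type II receptor gene Acvr2a (212 kb). Among 21 secreted antagonists and modulators they were Fstl3 (203 kb), Nbl1 (154 kb) and Bmp1 (216 kb), which encodes a protease that cleaves chordin. None of 10 intracellular genes, the SMAD genes among them, had one. Among 10 targets they were Id3 (90.7 kb), Id4 (263 kb), Msx1 (71.0 kb) and Sox9 (219 kb), which encode transcriptional regulators.

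In most of these 11 cases another coding gene was nearer to the site. The listed gene was the nearest for Acvr2a, with 2 shared first-ChIP intervals, and for Msx1 and Sox9. The Acvr2a site at chromosome 2, 48601828 to 48602257 had a validation score of 12 and a first-ChIP score of 23. The Msx1 site at chromosome 5, 37895454 to 37895776 had scores of 14 and 18, and the Sox9 site at chromosome 11, 112563136 to 112563511 had 12 and 17, in the same order. The site counted for Id3 had scores of 10 and 61 and was nearest to Rpl11, a ribosomal protein gene.

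**Figure D5:**
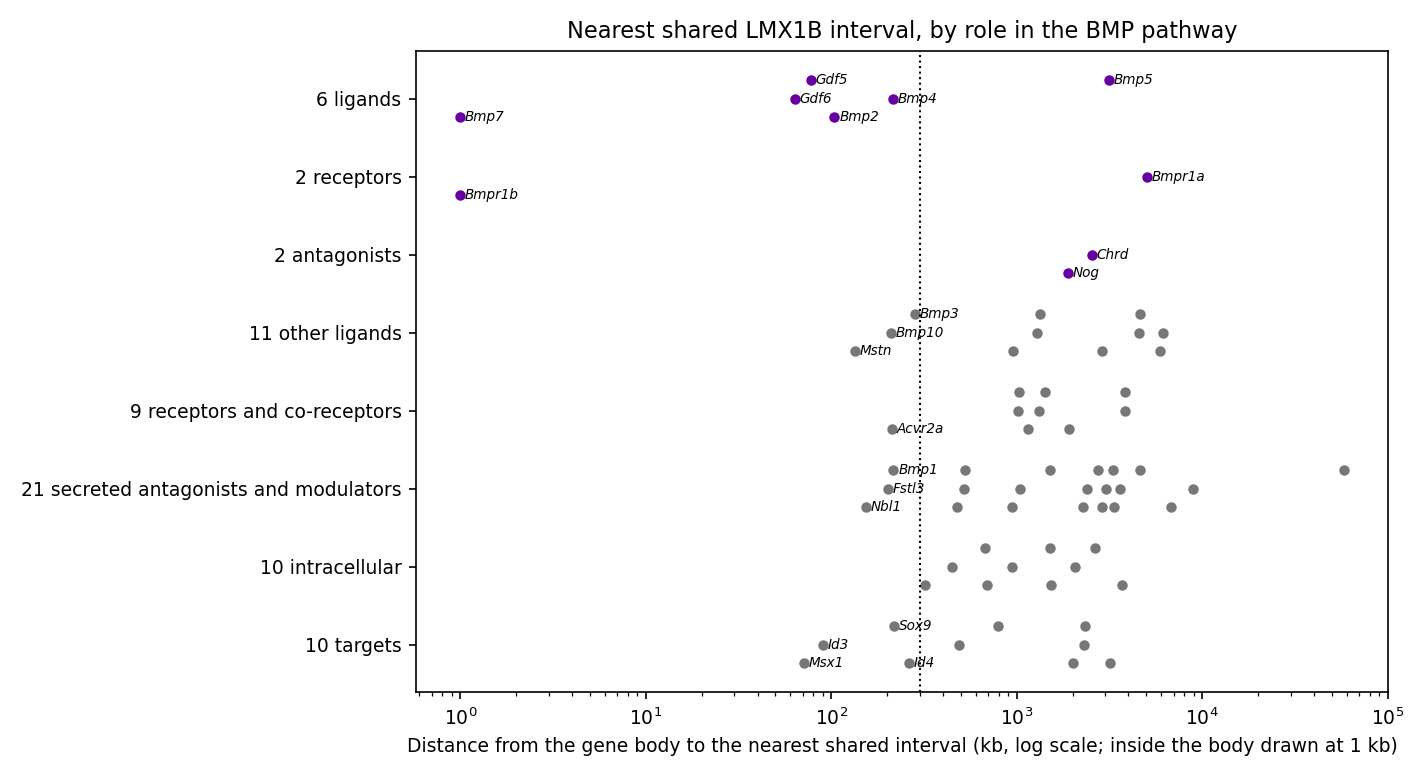
Distance in kb (horizontal axis, log scale) from each gene body to the nearest shared first-ChIP interval, with genes grouped by role (vertical axis) and the 10 genes in the upper 3 rows. Sites inside a gene body are drawn at 1 kb and the dotted line marks 300 kb. Bmp7 and Bmpr1b have a shared site inside the gene body, and Bmp5, Bmpr1a, Nog and Chrd have none within 1000 kb.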

How the data were processed

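The authors deposited 1 list of intervals for each ChIP, with a summit and a whole-number score per interval, per the file headers. The score has no stated unit or normalization. BWA and genome build mm10 are named in the submitters' processing notes, while neither peak caller nor threshold nor the use of the input is given in the sources used here. Peaks were deposited per sample. The 1287 first-ChIP intervals stand in 2 deposited copies, with 1 summit that differs, and were counted once, from the updated copy. Gene bodies came from RefSeq, GRCm38.p6, whose chromosomes are those of mm10, without entries that start before 3 Mb. Coordinates count from 1, except that summits were taken as deposited, so a distance from a summit to a gene start can be off by 1 bp. Counts, distances, ranks and Wilson intervals were computed with Python 3.11.15, NumPy 2.4.6, pandas 2.3.3 and SciPy 1.17.1, and the counting code was checked on simulated data. With 1 sample a group no test was made. Promoter sequences, held for 5 of the 10 genes, are RefSeq's. Genes, lists and settings were chosen with earlier results of these data known. All 10 genes are named, as are pathway genes with a shared interval and neighbouring coding genes. Replicates, depth and read counts were not analysed here.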

Additional observations from a re-analysis of the deposited data

How the results depend on the processing

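The number of the 10 genes with a shared interval, 6 at 300 kb, ranged from 4 to 6 over 8 alternative settings: 4 within 100 kb (without Bmp2 and Bmp4) and by nearest coding gene (without Bmp4 and Gdf5), 5 up to the next coding gene (without Gdf5), with 50% overlap of both intervals (without Bmp4) and at or above the median score (without Gdf6), and 6 within 1000 kb, by summit and with midpoints within 250 bp. The share of all protein-coding genes with one moved too, from 12.1% at 300 kb to 4.83% within 100 kb, 32.0% within 1000 kb, 2.91% up to the next coding gene, 2.28% by nearest coding gene, 9.22% with 50% overlap, 8.37% at or above the median score, 12.1% by summit and 11.2% with midpoints within 250 bp. Within 100 kb, interval totals were 17 (validation), 7 (first) and 6 (shared), with 2 pathway genes. Within 1000 kb there were 61 validation intervals and 23 pathway genes. By nearest coding gene the totals were 20, 8 and 6, with 3 pathway genes, and up to the next coding gene 3 pathway genes were left. With 50% overlap 5 first-ChIP intervals were shared. At or above the median score the totals were 20, 9 and 7, with 6 pathway genes. The smaller totals follow from narrower windows or fewer intervals. The other 32 values for these comparisons stayed within 1.5-fold or within the error of the value. Of the values for single genes, 52 moved further and 188 did not. For Bmp2, validation intervals went down to 1 within 100 kb, against 6 at 300 kb, and shared ones to 0 within 100 kb and 1 with 50% overlap, against 3. No paired analysis was possible because each group has 1 sample. Unknown depth limits any statement on genes without an interval.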

Other observations

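A promoter window was also overlapped by the validation interval in the Chrd window. The Eif4g1 window had a GC content of 62.0%, no TAAT, 1 match to GGCGCC and a summit 119 bp from the gene start. The Nfs1 window, opposite that of Romo1 and under the same first-ChIP interval, had a GC content of 69.7% and no match to any of the 5 motifs searched. Both were chosen for mention after their values were seen.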
